A study of Mus musculus with 2 samples.

Results

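The chemokine receptors *Ccr1*, *Ccr2*, *Ccr7*, *Ccr9*, *Cx3cr1*, *Cxcr2*, *Cxcr4* and *Xcr1* were taken by name from a single-cell mRNA count matrix of mouse liver, 8 of its 25909 genes. Chemokine receptors sit in the cell membrane and couple to Gi proteins, which lets a cell crawl towards the chemokine that its receptor binds. Each blood-borne cell type carries its own set, and in the liver these sets are known for guiding monocytes and neutrophils out of the blood, holding patrolling monocytes at the vessel wall and sending mature dendritic cells to lymph nodes. The matrix was used to ask which liver myeloid cells carried each receptor, and whether the levels differed with a steatohepatitis diet and with loss of the transcription factor Egr2 in myeloid cells.

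The cells were CD45.2+CD11b+ liver cells, sorted without those positive for CD90.2, B220, NK1.1 or SiglecF, so lymphocytes and eosinophils were meant to be absent. On normal diet (ND) the genotypes were *Egr2* fl/fl, without Cre, and *Lyz2* Cre/+.*Egr2* fl/fl. The same pair of genotypes was put on CDA-HFD, a diet rich in fat that lacks choline and in which amino acids stand in for protein. All 4 mice carried the floxed *Egr2* alleles, and CDA-HFD was fed for 7 weeks. In the study's methods, mice put on the diet were male and 6 to 12 weeks old, and the age and sex of the ND mice are not given in the sources used here. Cre was driven by *Lyz2*, a gene active in monocytes, macrophages and neutrophils, and the *Egr2* fl/fl mice had no Cre, so Cre and the loss of *Egr2* cannot be told apart. There was 1 mouse per group, so no difference had a replicate check, no test was made, and each comparison is between 2 mice. The cells of all 4 mice were pooled after marking with hashtags, and 1723, 1590, 5885 and 6186 cells were used, in the order ND *Egr2* fl/fl, ND *Lyz2* Cre/+.*Egr2* fl/fl, CDA-HFD *Egr2* fl/fl and CDA-HFD *Lyz2* Cre/+.*Egr2* fl/fl. Their summed counts were 32029953, 27840300, 85227192 and 90124521, and the median counts per cell were 16459, 15864.5, 13168 and 13476.5.

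Levels are given as CPM, counts scaled to a total of 1000000, from the counts summed over the cells of a class in a mouse. Their intervals are exact Poisson intervals, and those of ratios come from the exact binomial split of the counts. All cover counting error only, not the spread between mice or between cells. They treat each count as independent, and are too narrow where a few cells hold many of the counts. A receptor was called higher or lower when its CPM ratio was at least 1.5 in either direction with at least 30 counts over both mice. Classes were compared where each mouse had at least 50 cells.

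*Egr2*, the deleted gene, was at 13.3 (95% interval 12.0 to 14.6) CPM with *Egr2* fl/fl and at 5.85 (95% interval 4.99 to 6.83) with *Lyz2* Cre/+.*Egr2* fl/fl, both on ND. On CDA-HFD it was at 49.4 (95% interval 47.9 to 50.9) and 18.2 (95% interval 17.4 to 19.1). Both mice labelled *Lyz2* Cre/+.*Egr2* fl/fl had the lower level on their diet. Within classes on CDA-HFD, the genotype ratio of *Egr2* was 0.0593 in cluster 7 and 0.118 in neutrophil-like cells, but 0.891 in *Cd209a*+ dendritic cell-like cells. Counts on exons outside the deleted part were not separated from the rest.

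The cells formed 24 clusters, made without any of the 24 chemokine receptor genes in the matrix, and were named from marker lists that hold no receptor. Of these, 5 clusters with 4046 cells had no name, and are given by number with leading genes other than receptors: cluster 4 (*Thbs1*, *Nr4a2*), cluster 5 (*Apoc2*, *Gm44805*), cluster 7 (*Olfml3*, *Tmem119*), cluster 11 (*Malat1*, mitochondrial genes) and cluster 15 (*Ttr*, *Apoa2*). With receptors included, *Ccr2* came first and *Cx3cr1* also stood among the leading genes of cluster 5, and *Cxcr2* among those of the neutrophil-like cluster 8. *Ccr7* stood among those of the mature dendritic cell-like cluster 14, and *Xcr1* among those of cluster 19, like cross-presenting dendritic cells. Kupffer cell-like cells, the resident liver macrophages, numbered 677 and 712 in the ND mice, and 0 and 10 in the CDA-HFD mice. Cells like lipid-associated macrophages (hLAM-like) numbered 5 and 3 on ND, and 802 and 768 on CDA-HFD. So several classes stood on 1 diet only, and ratios over all cells mixed levels within classes with the makeup of the sorted cells. The sort and the number of cells loaded, 3000 from each ND mouse and 9000 from the CDA-HFD *Egr2* fl/fl mouse, can set the numbers of cells. A load of 9000 is also labelled for 1 hashtag outside the 4 used, and was read as that of the other CDA-HFD mouse.

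*Cxcr2*, the neutrophil receptor for CXC chemokines such as Cxcl1 and Cxcl2, was nearly limited to 1 class. In neutrophil-like cells it was at 2276 CPM in the ND *Egr2* fl/fl mouse, 2539 in the ND *Lyz2* Cre/+.*Egr2* fl/fl mouse, 1029 in the CDA-HFD *Egr2* fl/fl mouse and 1051 in the CDA-HFD *Lyz2* Cre/+.*Egr2* fl/fl mouse. Both CDA-HFD mice were below both ND mice. In this class 1632 of 8081 genes were called lower on CDA-HFD with *Egr2* fl/fl, and 1459 of 8600 with *Lyz2* Cre/+.*Egr2* fl/fl. How many genes separated the mice in this way was not counted. Neutrophil-like cells held 80.2%, 88.2%, 88.9% and 89.6% of all *Cxcr2* counts of their mouse. A *Cxcr2* count was present in 99.1%, 95.4%, 82.3% and 84.2% of them. After each cell was thinned to 3000 counts, which kept every cell, the shares were 96.4%, 94.4%, 77.6% and 78.2%. In Kupffer cell-like cells, which should lack *Cxcr2*, the thinned shares were 2.22% and 2.25% in the ND mice, so the share in neutrophil-like cells was far above this background. The ND neutrophil-like cells had medians of 3832 and 3960 counts per cell, against 4124.5 and 4112.5 on CDA-HFD, and 26763 and 25421 for the Kupffer cell-like cells on ND.

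*Ccr1*, a receptor for inflammatory CC chemokines such as Ccl3 and Ccl5, was also highest in neutrophil-like cells, at 769, 852, 523 and 458 CPM in the same order of mice. The next class compared in all 4 mice, *Cd209a*+ dendritic cell-like cells, was at 63.9, 102, 64.0 and 66.0 CPM. Neutrophil-like cells were above these in every mouse, yet they held a smaller part of the *Ccr1* counts than of the *Cxcr2* counts, 41.5%, 64.9%, 40.2% and 39.4%. Thinned shares with a *Ccr1* count were 68.2%, 73.98%, 59.0% and 58.2% of neutrophil-like cells, against 4.11% of the 73 B cell-like cells of all mice, whose median count was 12171. Before thinning, 72.7%, 80.1%, 66.5% and 67.6% of neutrophil-like cells had a *Ccr1* count. In Ly6C lo monocyte-like cells *Ccr1* did not exceed 8.59 CPM in any mouse. On ND, *Lyz2* Cre/+.*Egr2* fl/fl cells had 0 counts there, with an upper bound of 7.09 CPM from the exact interval.

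*Ccr2*, the receptor for Ccl2 that brings monocytes from bone marrow into blood and tissue, was highest in cluster 5 on CDA-HFD, at 1138 and 1234 CPM, and in Ly6C hi monocyte-like cells on ND, where cluster 5 had under 50 cells in each mouse. Cluster 4 followed at 919.7 and 975 CPM on CDA-HFD. Ly6C hi monocyte-like cells, the inflammatory blood monocytes, were at 1150.2, 946, 724 and 754 CPM in the 4 mice. The order of cluster 5, cluster 4 and Ly6C hi cells held in both CDA-HFD mice, while the Ly6C hi cells of the ND *Egr2* fl/fl mouse were as high as cluster 5. With clusters at resolution 0.5, Ly6C hi cells had the highest mean of *Ccr2*. Cluster 7 was at 614, 659.8, 475 and 369 CPM, and hLAM-like cells at 242 and 249.9 on CDA-HFD. Ly6C lo monocyte-like cells, which patrol the vessel wall, were at 104, 63.4, 247 and 369.7 CPM. Kupffer cell-like cells had 10.4 and 14.3 CPM on ND, the lowest of the classes in each ND mouse. Thinned shares with a *Ccr2* count were 81.1%, 88.9%, 66.5% and 70.9% of Ly6C hi cells, and 5.45%, 8.67%, 8.89% and 11.8% of neutrophil-like cells, the class used as background. The unthinned shares of Ly6C hi cells were 95.8%, 95.1%, 84.8% and 86.8%. The Ly6C hi cells had median counts of 11936, 12879, 12903.5 and 13404.5.

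*Cx3cr1*, which binds the membrane-bound chemokine Cx3cl1 and keeps patrolling monocytes and tissue macrophages in place, had its highest mean over mice in cluster 7. There it was at 1183, 1013, 717 and 614 CPM in the same order of mice. Cluster 5, which had under 50 cells in each ND mouse, was at 582 and 653 CPM on CDA-HFD, below cluster 7 with *Egr2* fl/fl and above it with *Lyz2* Cre/+.*Egr2* fl/fl. Ly6C lo cells were at 589, 524, 415 and 577 CPM, and Ly6C hi cells at 462, 541, 417 and 448. The ranges of the Ly6C lo and Ly6C hi classes overlapped over the mice. Thinned shares with a *Cx3cr1* count were 89.6%, 86.1%, 76.4% and 66.7% in cluster 7, against 10%, 4.59%, 6.38% and 8.70% in neutrophil-like cells. Unthinned, 97.4%, 95.8%, 94.5% and 88.1% of cluster 7 had a count. Cluster 7 had median counts of 9171, 11246.5, 24377 and 22507, far deeper on CDA-HFD than on ND. *Cx3cr1* in Kupffer cell-like cells was at 11.1 and 18.5 CPM on ND.

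Some cells had counts of both monocyte receptors. After thinning, *Ccr2* and *Cx3cr1* were detected together in 48.4%, 56.8%, 38.6% and 43.2% of Ly6C hi cells. In Ly6C lo cells they were together in 8.33%, 2.74%, 17.8% and 29.2%, and *Cx3cr1* was alone in 60%, 54.8%, 39.0% and 38.9%. The share of Ly6C lo cells with *Cx3cr1* alone was lower in both CDA-HFD mice. Shares with both depend on how frequent each receptor was, and those expected if the receptors were independent are not given here.

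*Cxcr4*, the receptor for Cxcl12 that holds leukocytes in bone marrow and tissue, was found in many classes. Neutrophil-like cells had its highest mean over mice, at 459.7, 509, 844 and 848 CPM. Ly6C lo cells were at 136, 134, 509 and 507 CPM, and cluster 4 at 398 and 469 on CDA-HFD. The lowest named class was that of Kupffer cell-like cells, at 10.8 and 12.2 CPM on ND. Thinned shares with a *Cxcr4* count were 58.2%, 60.7%, 74.2% and 78.1% of neutrophil-like cells, and 2.51% and 2.67% of the ND Kupffer cell-like cells. For neutrophil-like cells the shares before thinning were 63.6%, 67.9%, 80.3% and 85.9%. A small class of 34 eosinophil-like cells, too few for a value per mouse, had 711 (95% interval 598 to 840.0) CPM over all mice.

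*Ccr7*, which guides mature dendritic cells along Ccl19 and Ccl21 to lymph nodes, was at 3256 and 3309.8 CPM in the mature dendritic cell-like cells of the CDA-HFD mice. Every one of the 113 and 100 cells of the class there had a *Ccr7* count, and the thinned shares were 93.8% and 100%. In neutrophil-like cells the thinned share with *Ccr7* did not exceed 1.02% in any mouse. The mature class had median counts of 13237 and 12233.5, and held 71.1%, 78.6%, 65.6% and 72.2% of all *Ccr7* counts in the 4 mice. Most *Ccr7* counts of every mouse thus lay in that 1 class.

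*Xcr1*, the receptor for Xcl1 that marks cross-presenting dendritic cells (cDC1), was at 455 (95% interval 430.4 to 481) CPM in the 104 cDC1-like cells summed over the mice. A *Xcr1* count was present in 85.6% of them, or 61.5% after thinning, at a median of 25044.5 counts, while the thinned share in neutrophil-like cells did not exceed 3.06%. Among classes with at least 50 cells in a mouse, proliferating cell-like cells were highest, at 139.9 CPM in the ND *Egr2* fl/fl mouse, and 31.0 and 64.0 on CDA-HFD. The cDC1-like cells held 50.5%, 37.7%, 24.95% and 48.3% of the *Xcr1* counts of their mouse.

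*Ccr9*, a receptor for Ccl25 known from gut-homing lymphocytes and plasmacytoid dendritic cells, was scarce, with 412 counts in all. It was at 1.53, 1.44, 1.40 and 2.26 CPM over all cells of the 4 mice. With finer clusters, at resolution 2.0 in place of 1.0, 12 plasmacytoid dendritic cell-like cells stood apart and held 151 of those counts, 36.7%. There *Ccr9* was at 724 (95% interval 613 to 849.6) CPM, and 75.0% of the cells had a count after thinning. Those 12 cells, 0, 1, 2 and 9 in the 4 mice, lay in the B cell-like cluster at the coarser resolution. That cluster, with 73 cells over the 4 mice, had *Ccr9* at 141 (95% interval 120.0 to 165) CPM. In no class of at least 50 cells in a single mouse did *Ccr9* exceed 9.66 CPM, the level of the T or NK cell-like cells of the ND *Egr2* fl/fl mouse, from 7 counts.

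**Figure D1:**
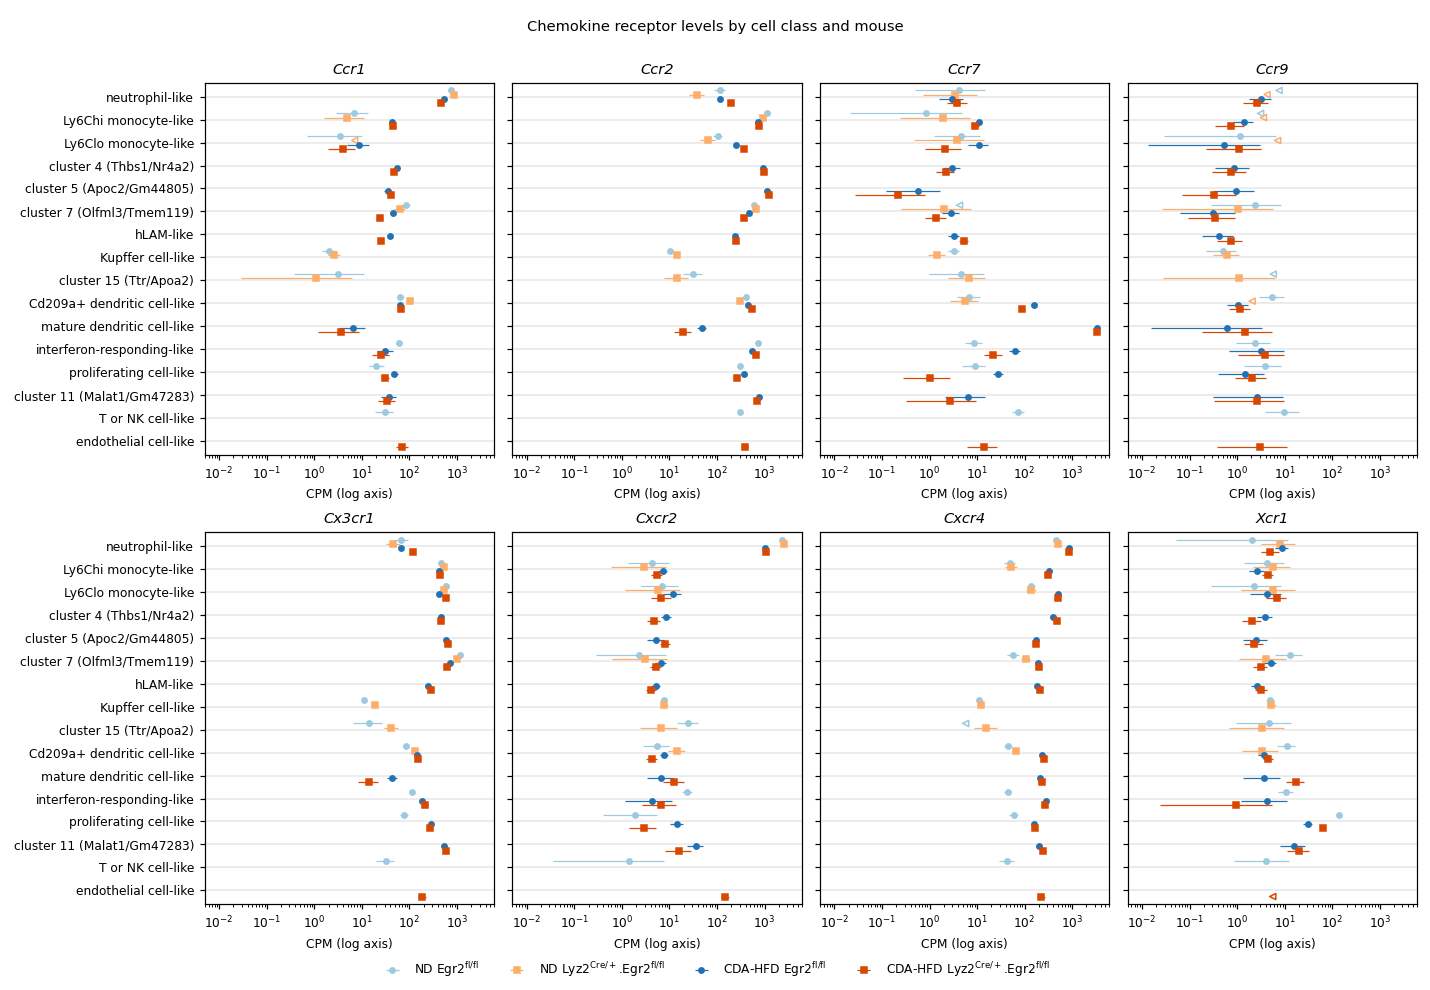
CPM (log axis) of each receptor in each class with at least 50 cells in a mouse, by mouse, with exact 95% Poisson intervals; open triangles give the upper bound where the count was 0. *Cxcr2* stood highest in neutrophil-like cells, up to 2539 CPM, and *Ccr7* in mature dendritic cell-like cells, at 3256 and 3309.8 CPM.

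The diet was compared within each genotype, which asks how the receptors of the sorted cells differed after 7 weeks of CDA-HFD. Over all cells of the *Egr2* fl/fl mice, 6 of the 8 receptors were called, 5 higher and 1 lower on CDA-HFD, where 35.6% of the 17643 genes with enough counts were called. With *Lyz2* Cre/+.*Egr2* fl/fl, 5 receptors over all cells were called, each higher, against 37.4% of 17810 genes. The median ratio of the 8 receptors was 2.46 and 2.59, and that of all genes 0.913 and 0.906. *Cxcr4* had the largest ratio in both genotypes, 7.84 (95% interval 7.39 to 8.33) and 6.40 (95% interval 6.05 to 6.77). Its levels over all cells were 36.0 and 45.9 CPM on ND, and 282 and 294 on CDA-HFD. *Ccr2* rose to 2.34 and 4.36 times its ND level, *Ccr7* to 3.65 and 3.61 times, and *Cx3cr1* to 3.41 and 3.70 times. *Ccr1* rose to 2.57 times in *Egr2* fl/fl mice, and its ratio of 1.47 in the other genotype was not called. The latter was 0.886 as the mean over cells of each cell's CPM, 2.17 in cells with at least 90% of hashtag counts on their own hashtag and 2.59 without neutrophil-like cells. *Ccr9* rose to 1.58 times with *Lyz2* Cre/+.*Egr2* fl/fl and had a ratio of 0.913 in the other genotype. The former was 1.23 as the mean over cells and 0.918 without the 12 plasmacytoid dendritic cell-like cells, 9 of them in the CDA-HFD mouse of that pair, and was called in neither case. *Cxcr2* had ratios of 1.495, just under the call, and 0.675. The first was called higher at 1.88 with the 90% hashtag filter, and the second lower at 0.538 as the mean over cells and 0.608 without neutrophil-like cells. *Xcr1* fell to 0.244 times its ND level in the *Egr2* fl/fl pair and had a ratio of 0.824 in the other. As the mean over cells, *Cx3cr1* had a diet ratio of 1.89 with *Egr2* fl/fl and *Cxcr4* of 3.71 with *Lyz2* Cre/+.*Egr2* fl/fl, and the 90% hashtag filter gave *Ccr7* 5.91 in the latter genotype.

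Kupffer cell-like cells, low in most of these receptors, were the largest class on ND and nearly absent on CDA-HFD. Their 10 marker genes summed to 15975 and 19473 CPM on ND, and to 293 and 453 on CDA-HFD, with *Clec4f* the most abundant on ND, *Cd5l* on CDA-HFD, and none at 0. Of these markers *Clec4f*, *Cd5l*, *Fcna* and *Vsig4* had no low counts in the matrix. Without those cells, the diet ratio of *Cxcr4* was 4.08 and 2.76 with *Egr2* fl/fl and with *Lyz2* Cre/+.*Egr2* fl/fl, still called in both. That of *Ccr2* was 1.04 and 1.68, and that of *Ccr1* was 1.16 and 0.546. *Cx3cr1* had 1.57 and 1.49, *Ccr7* 1.69 and 1.36, and *Cxcr2* 0.718 and 0.256. So of the 5 receptors higher over all cells in *Egr2* fl/fl mice, *Cxcr4*, *Cx3cr1* and *Ccr7* kept their call without Kupffer cell-like cells, and *Ccr1* and *Ccr2* lost it. *Ccr9*, at 0.483, and *Xcr1*, at 0.118, were called lower there, and 32.1% of all genes were called. With *Lyz2* Cre/+.*Egr2* fl/fl, *Cxcr4* and *Ccr2* kept theirs, *Cx3cr1*, *Ccr7* and *Ccr9* lost it, and *Ccr1*, *Cxcr2* and *Xcr1*, the last at 0.379, were called lower, against 33.5% of all genes. The ratios of *Ccr9* and *Ccr1* in that genotype and of *Cxcr2* in the other thus passed from above 1 to below 1, *Ccr9* at 0.777.

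Within classes, 7 had enough cells in both *Egr2* fl/fl mice, and 43 pairs of a receptor and a class had enough counts. Of these pairs, 21 were higher and 11 lower on CDA-HFD, where 39.4% of all pairs of a gene and a class were called. For *Lyz2* Cre/+.*Egr2* fl/fl mice, 5 classes could be compared, and 14 pairs were higher and 8 lower of 29, against 39.2% of all pairs. *Cxcr4* was higher on CDA-HFD in 12 of 12 comparisons within a class, with ratios from 1.67 to 6.77. Of all pairs of a gene and a class, 19.1% were higher with *Egr2* fl/fl and 20.9% with *Lyz2* Cre/+.*Egr2* fl/fl. The classes came from the same mice, and how many genes were higher in every class was not counted. In Ly6C hi cells the *Cxcr4* ratio was 6.77 (95% interval 5.22 to 8.93) in *Egr2* fl/fl mice and 5.96 (95% interval 4.55 to 7.94) in *Lyz2* Cre/+.*Egr2* fl/fl mice. *Cd209a*+ dendritic cell-like cells had 5.12 and 3.90, Ly6C lo cells 3.74 and 3.77, and cluster 7 3.37 and 1.94. The CPM of Ly6C hi cells were 49.0 and 52.3 on ND, and 332 and 312 on CDA-HFD. The Ly6C hi class came mostly from cluster 3 on ND and from clusters 3 and 9 on CDA-HFD. Cluster 9 had 5 and 6 cells on ND, and 403 and 380 on CDA-HFD. The Ly6C hi ratios thus compare different mixtures of clusters, and levels in cluster 3 alone are not given here. Without neutrophil-like cells, the class where *Cxcr4* was highest, its ratio over all cells was 8.46 and 8.50.

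**Figure D2:**
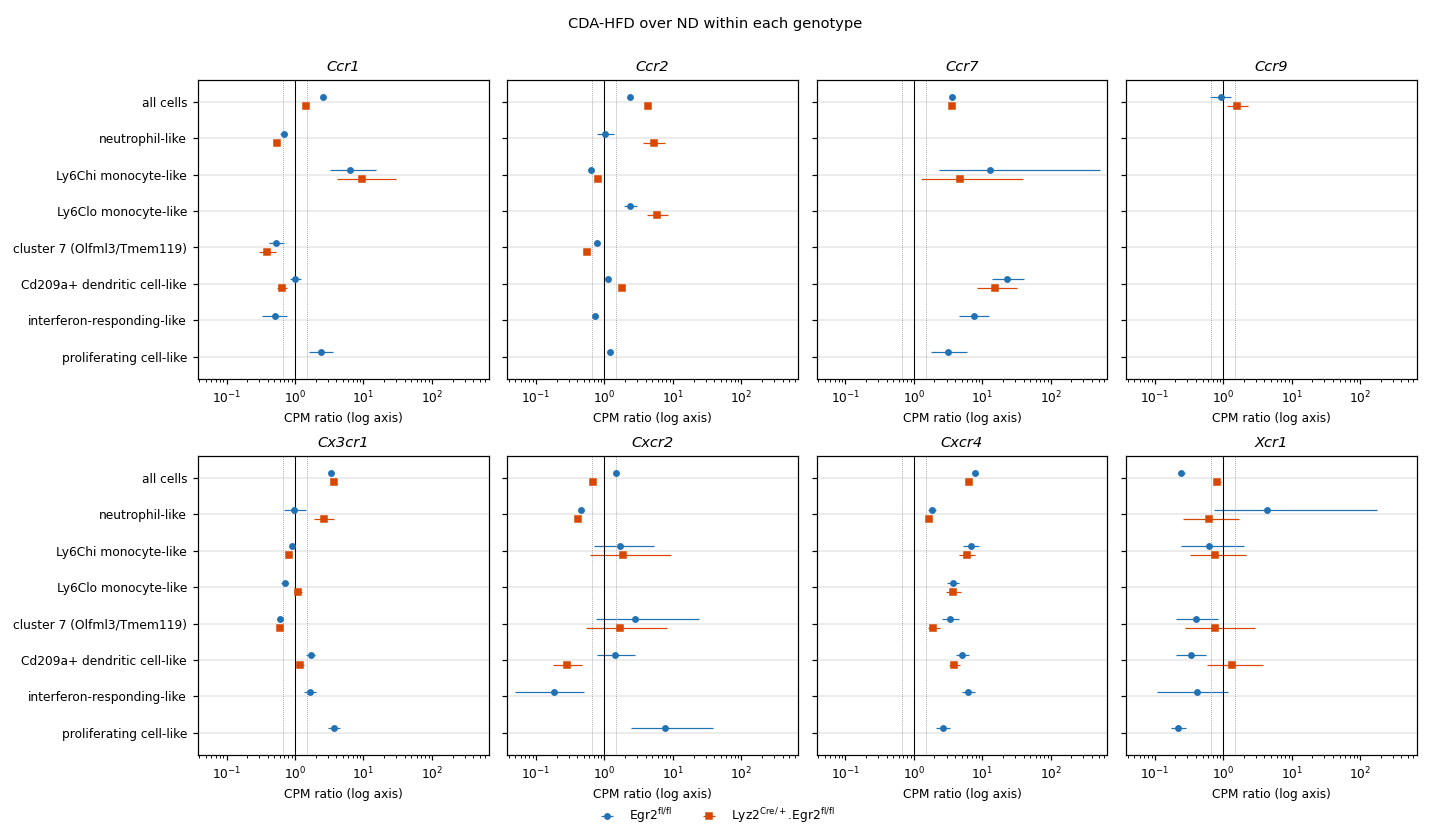
CPM ratio (log axis) of CDA-HFD over ND for each receptor with enough counts, over all cells and within classes, with 95% intervals of the counts; dotted lines mark a ratio of 1.5 in either direction. Every *Cxcr4* ratio within a class lay to the right of 1.5, from 1.67 to 6.77.

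In neutrophil-like cells *Cxcr2* and *Cxcr4* differed with diet in opposite directions. *Cxcr2* fell on CDA-HFD to 0.452 (95% interval 0.424 to 0.483) times its ND level in *Egr2* fl/fl mice and 0.414 (95% interval 0.394 to 0.436) times in *Lyz2* Cre/+.*Egr2* fl/fl mice. *Cxcr4* rose there to 1.84 (95% interval 1.60 to 2.11) and 1.67 (95% interval 1.51 to 1.84) times. Most neutrophil-like cells lay in cluster 8 on ND and in clusters 6 and 8 on CDA-HFD, so cluster 8 was also read alone. In cluster 8 *Cxcr2* was at 2581 and 2819.6 CPM on ND, and 1547 and 1863 on CDA-HFD. *Cxcr4* was at 445 and 521 CPM on ND, and 863 and 971 on CDA-HFD. Within that 1 cluster both receptors thus differed with diet in the same directions as in the class. How many of all genes differed there was not counted. After thinning, *Cxcr2* without *Cxcr4* was found in 39.1% and 37.8% of neutrophil-like cells on ND, and in 18.6% and 15.2% on CDA-HFD. *Cxcr4* without *Cxcr2* was found in 0.909%, 4.08%, 15.2% and 15.1%, and both together in 57.3%, 56.6%, 59.0% and 63.0%. The shares with both receptors lay close together in the 4 mice, while cells with *Cxcr2* alone were fewer and cells with *Cxcr4* alone more frequent in both CDA-HFD mice. These shares depend on the thinned share of each receptor, lower for *Cxcr2* and higher for *Cxcr4* on CDA-HFD. Whether the receptors were linked within cells was not tested.

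**Figure D3:**
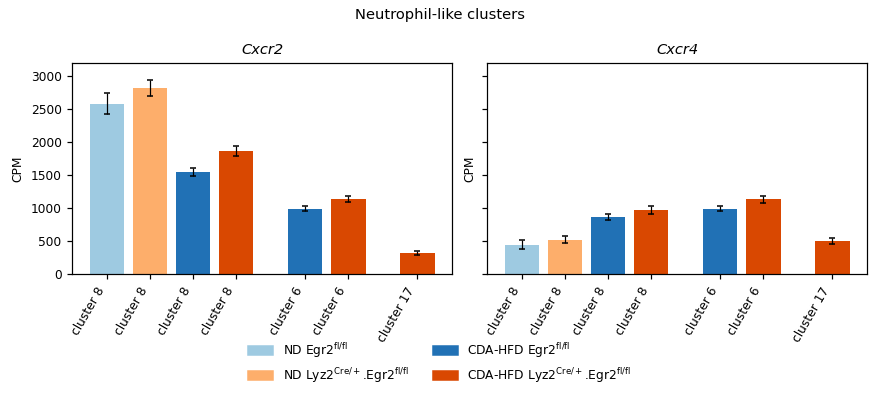
CPM of *Cxcr2* and *Cxcr4* in neutrophil-like clusters with at least 50 cells in a mouse; bars give the level by mouse and lines the exact 95% Poisson interval. In cluster 8, *Cxcr2* was at 2581 and 2819.6 CPM on ND against 1547 and 1863 on CDA-HFD, and *Cxcr4* ran the other way.

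*Ccr1* differed by class. In Ly6C hi cells it rose from 6.76 and 4.84 CPM on ND to 43.6 and 46.4 on CDA-HFD, ratios of 6.45 (95% interval 3.26 to 15.02) and 9.57 (95% interval 4.08 to 29.6). The ND levels rested on 8 and 5 counts, and the makeup of the class from clusters 3 and 9 differed by diet. In cluster 7 it fell to 0.535 and 0.391 times its ND level. In neutrophil-like cells the ratio was 0.681, not called, and 0.537, called lower.

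*Ccr7* rose on CDA-HFD in *Cd209a*+ dendritic cell-like cells, from 6.85 and 5.62 CPM on ND to 156 and 87.5. Those ratios were 22.7 (95% interval 13.7 to 40.6) and 15.6 (95% interval 8.44 to 32.6), with 15 and 10 counts on ND. The thinned shares of these cells with *Ccr7* were 2.24% and 0.862% on ND, and 10.99% and 5.11% on CDA-HFD, and before thinning 3.73%, 0.862%, 14.97% and 9.08% in the 4 mice. So the count sat in a minority of the class in every mouse. The median counts of the class were 15738, 14856.5, 15023 and 15182. Without mature dendritic cell-like cells, the diet ratio of *Ccr7* over all cells was 4.38 and 4.73.

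In Ly6C hi cells, whose makeup from clusters 3 and 9 differed by diet, *Ccr2* fell in *Egr2* fl/fl mice to 0.629 times its ND level. Its ratio in *Lyz2* Cre/+.*Egr2* fl/fl mice, 0.797, was not called. In Ly6C lo cells it rose in both genotypes, to 2.38 (95% interval 1.90 to 3.02) and 5.83 (95% interval 4.13 to 8.52) times. The higher level of Ly6C hi over Ly6C lo cells was therefore smaller on CDA-HFD in both genotypes. *Cx3cr1* had ratios of 0.901 and 0.828 in Ly6C hi cells and 0.704 and 1.10 in Ly6C lo cells, none called. It fell in cluster 7, to 0.606 and 0.606 times. *Xcr1* in proliferating cell-like cells of *Egr2* fl/fl mice fell to 0.222 (95% interval 0.171 to 0.286) times its ND level, and that class could not be compared in the other genotype.

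The genotype was compared within each diet, which asks whether the receptors differed with *Lyz2*-driven deletion of *Egr2*. On ND, 3 of the 8 receptors were called over all cells, 1 higher and 2 lower with *Lyz2* Cre/+.*Egr2* fl/fl, against 13.7% of 15836 genes. *Cxcr2* rose to 2.09 (95% interval 1.95 to 2.23) times, *Ccr2* fell to 0.599 (95% interval 0.575 to 0.623) times and *Xcr1* fell to 0.591 (95% interval 0.524 to 0.665) times the *Egr2* fl/fl level. In neutrophil-like cells the *Cxcr2* ratio was 1.12, and in Ly6C hi cells that of *Ccr2* was 0.822, neither called. The 10 neutrophil markers summed to 2193 CPM in the ND *Egr2* fl/fl mouse and 4715 in the one with *Lyz2* Cre/+.*Egr2* fl/fl, with *S100a9* the most abundant and none at 0. *S100a9* and *Retnlg* of that list had no low counts in the matrix. Without neutrophil-like cells the ratio over all cells was 1.26 for *Cxcr2* and 0.887 for *Ccr1*, which had 1.46 with them. Interferon-responding-like cells numbered 159 and 21 in the ND mice, and held 31.6% and 6.22% of their *Ccr2* counts. Without that class the *Ccr2* ratio on ND was 0.756, not called, and *Ccr1* was called higher, at 1.66, as it was by the mean over cells, at 1.74. The cDC1-like cells numbered 29 and 12 on ND, and without them *Xcr1* was at 0.734 times, so its call was lost as well. Without Kupffer cell-like cells the call of *Ccr2* was lost, at 0.693, and *Ccr1* and *Cxcr4* were called higher, at 1.76 and 1.54.

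On CDA-HFD, 2 of the 8 receptors were called over all cells, both higher with *Lyz2* Cre/+.*Egr2* fl/fl, against 10.8% of 18798 genes. These were *Xcr1*, at 2.00 (95% interval 1.80 to 2.22) times, and *Ccr9*, at 1.62 (95% interval 1.29 to 2.05) times. Without the cDC1-like cells *Xcr1* was at 1.39 times, and without the 12 plasmacytoid dendritic cell-like cells *Ccr9* was at 0.906 times, so neither call held. The cDC1-like cells numbered 18 and 45 with *Egr2* fl/fl and with *Lyz2* Cre/+.*Egr2* fl/fl on CDA-HFD. Read as the mean over cells of each cell's CPM, *Xcr1* had a ratio of 1.47 and *Ccr9* of 1.31. *Ccr7* was not called by genotype over all cells, with ratios of 0.717 on ND and 0.710 on CDA-HFD. Without mature dendritic cell-like cells it was called lower on both diets, at 0.529 and 0.571, and on ND also with the 90% hashtag filter, at 0.645. The median genotype ratio of the 8 receptors was 0.983 on ND and 1.08 on CDA-HFD, where that of all genes was 1.03 and 1.02.

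Within classes on ND, 6 of 30 pairs of a receptor and a class were higher and 5 lower over 7 classes, against 24.1% of all pairs. Of these, *Cxcr4* in cluster 7 was called higher, with 50 counts in the 77 *Egr2* fl/fl cells and 103 in the 72 of the other genotype. In the same order, *Ccr1* in *Cd209a*+ dendritic cell-like cells was higher, at 63.9 and 102 CPM. *Cx3cr1* in Kupffer cell-like cells was also higher, at 11.1 and 18.5 CPM, while *Ccr7* there was lower, at 3.24 and 1.45 CPM. On CDA-HFD 6 of 74 pairs were higher and 17 lower over 12 classes, against 17.5% of all pairs. *Cxcr4*, which had the largest diet ratios over all cells, had genotype ratios from 0.940 to 1.20 in the 12 classes on CDA-HFD, and none was called. *Ccr1* fell in cluster 7, to 0.544 (95% interval 0.466 to 0.634) times, and in hLAM-like cells, to 0.633 (95% interval 0.561 to 0.714) times the *Egr2* fl/fl level. Its CPM in hLAM-like cells were 39.9 and 25.3. *Ccr2* and *Cx3cr1* in hLAM-like cells had ratios of 1.03 and 1.19, not called.

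*Ccr7* fell in *Cd209a*+ dendritic cell-like cells on CDA-HFD, to 0.563 (95% interval 0.525 to 0.604) times, in a class where the *Egr2* ratio itself was 0.891 and not called, while mature dendritic cell-like cells had a ratio of 1.02 (95% interval 0.977 to 1.06). In proliferating cell-like cells *Ccr7* fell to 0.0375 (95% interval 0.00995 to 0.0999) times, from 77 counts in the *Egr2* fl/fl mouse and 4 in the other. The cell types in that class were not told apart. In mature dendritic cell-like cells *Ccr2* fell to 0.405 (95% interval 0.249 to 0.638) times and *Cx3cr1* to 0.325 (95% interval 0.185 to 0.544) times. The levels of both were low there, at most 47.7 and 43.5 CPM. In neutrophil-like cells on CDA-HFD *Ccr2* rose to 1.70 times and *Cx3cr1* to 1.81 times. Cluster 17, 66 of these cells with *Lyz2* Cre/+.*Egr2* fl/fl, had 649 CPM of *Ccr2*, 377 of *Cx3cr1* and 312 of *Cxcr2*. Clusters 6 and 8 of the CDA-HFD mice had *Ccr2* between 31.1 and 49.0 CPM. Without cluster 17 the *Ccr2* ratio in neutrophil-like cells was 0.874 and that of *Cx3cr1* 1.27, so neither call held. The median count per cell of cluster 17 was 1.31 times that of the mouse, against 0.299 and 0.287 times for clusters 6 and 8. Whether cluster 17 held doublets of different cell types was not tested.

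**Figure D4:**
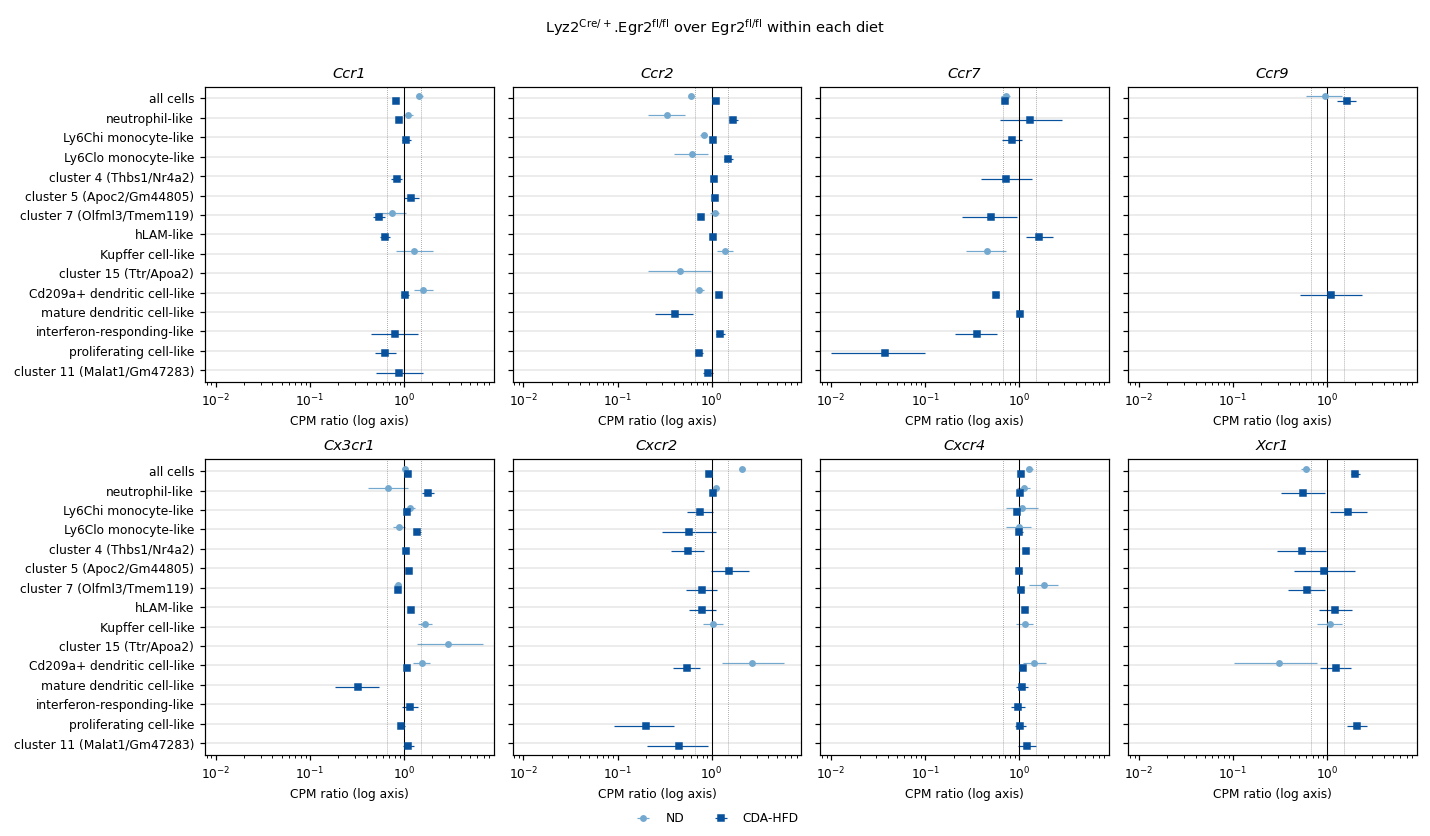
CPM ratio (log axis) of *Lyz2* Cre/+.*Egr2* fl/fl over *Egr2* fl/fl for each receptor with enough counts, over all cells and within classes on each diet, with 95% intervals of the counts; dotted lines mark a ratio of 1.5 in either direction. *Cxcr4* on CDA-HFD lay between 0.940 and 1.20 in all 12 classes, while on ND it was called higher in cluster 7.

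Of 15 other chemokine receptors, 10 had enough counts in the *Egr2* fl/fl mice, and 2 were higher and 7 lower on CDA-HFD, with a median ratio of 0.358, where 35.6% of all genes were called. With *Lyz2* Cre/+.*Egr2* fl/fl, 3 were higher and 8 lower of 12, with a median of 0.362, against 37.4% of all genes. By genotype, 2 were higher and 1 lower of 10 on ND, against 13.7%, and 4 higher and none lower of 10 on CDA-HFD, against 10.8%. *Ccrl2*, which holds chemerin at the cell surface without signalling, was at 52.6, 36.9, 378 and 302 CPM over all cells and highest in neutrophil-like cells. *Ccr3* was at 15.2, 11.4, 2.64 and 3.06 CPM, lower in both CDA-HFD mice. Among classes with at least 50 cells in a mouse it was highest in cluster 15, which had 86 and 124 cells on ND and 4 and 7 on CDA-HFD. The 34 eosinophil-like cells, too few for that comparison, had *Ccr3* at 589 (95% interval 486 to 707) CPM over all mice. *Cxcr3* was at 12.7, 10.2, 2.59 and 4.14 CPM. *Cxcr6* was at 3.68, 3.95, 0.845 and 0.677 CPM, and like *Cxcr3* was highest in T or NK cell-like cells, cells that the sort was meant to remove. *Cxcr3* and *Cxcr6* were lower in both CDA-HFD mice than in both ND mice, as were the 10 T or NK cell markers, which summed to 275, 162, 39.7 and 34.4 CPM with *Gzma*, a gene without low counts in the matrix, the most abundant and none at 0. The part of T or NK cell-like cells, eosinophil-like cells and cluster 15 in these ratios was not tested. A further 10 receptors of the list, such as *Ccr4*, *Ccr6* and *Ackr1*, did not exceed 1.36 CPM over all cells of any mouse.

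Among 20 ligands of the 8 receptors, 19 were in the matrix. By diet 8 were higher and 6 lower of 19 in both genotypes, against the same 35.6% and 37.4% of all genes. On ND 1 was higher and 5 lower of 17 by genotype, against 13.7%, and on CDA-HFD 4 were higher and 2 lower of 19, against 10.8%. *Cxcl2*, a ligand of *Cxcr2*, was at 81.4, 48.2, 1062 and 686 CPM and highest in neutrophil-like cells, with no value between 0 and 6 in the matrix. *Ccl3*, a ligand of *Ccr1*, was at 126, 157, 604 and 603 CPM, and *Ccl2*, a ligand of *Ccr2*, at 63.4, 59.2, 48.3 and 54.9. *Cxcl12*, the ligand of *Cxcr4*, was at 2.997, 4.35, 1.24 and 2.22 CPM and highest in endothelial cell-like cells. Of 20 proteins that act behind the receptors, such as Gi subunits, arrestins and Rgs proteins, 2 were higher and 3 lower by diet in *Egr2* fl/fl mice and 3 higher and 2 lower in *Lyz2* Cre/+.*Egr2* fl/fl mice, against 35.6% and 37.4% of all genes. None was called by genotype, where 13.7% of all genes were called on ND and 10.8% on CDA-HFD. *Rgs1*, which damps Gi signals, was at 320.3, 261, 792 and 775 CPM.

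Over 42 sums of a class in a mouse, each of at least 50 cells, each receptor's log2(CPM + 1) was set against that of 11841 genes. The cDC1-like and B cell-like cells, where *Xcr1* and *Ccr9* were high, had fewer cells in every mouse and were not among the sums. The sums share a library and the same mice, so each Pearson r is a description. *Cxcr2* was most like *S100a8* (r 0.969), *H2-Q2* and *Cstdc4*, and *Ccr2* most like *Mcub* (r 0.909), *Lat2* and *Adam15*. *Cxcr4* was most like *Zfp36* (r 0.874), *H3f3b* and *Sik1*, *Ccr7* most like *Tmem123* (r 0.857), *Aebp2* and *Fscn1*, and *Cx3cr1* most like *Mef2c* (r 0.853), *Rnase4* and *Ms4a4a*. *Ccr1* came nearest to *Gsn* (r 0.834), *Gm34084* and *Clec5a*, *Xcr1* to *Anln* (r 0.775), *Gcsam* and *Cep55*, and *Ccr9* to *Nxpe3* (r 0.685), *Gpr171* and *Thy1*. *S100a8*, *Tmem123* and *Fscn1* are on the marker lists that named the classes. With log2(CPM + 10) none of the 3 genes named for *Ccr1* came again, and 1 of 3 did for *Ccr7* and for *Ccr9*. Between the receptors themselves, *Ccr2* and *Cx3cr1* had r 0.772 and *Ccr1* and *Cxcr2* 0.618.

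Of the 8 receptor genes, 5 lie on chromosome 9, 2 on chromosome 1 and 1, *Ccr7*, on chromosome 11 at chr11:99144199-99155077 (RefSeq, GRCm38.p6). *Ccr9* at chr9:123767211-123783457, *Xcr1* at chr9:123852315-123862029, *Ccr1* at chr9:123962126-123968692 and *Ccr2* at chr9:124101918-124109140 form 1 cluster, in which *Cxcr6* lies between *Ccr9* and *Xcr1*, and *Ccr3* between *Ccr1* and *Ccr2*. *Cx3cr1* lies apart at chr9:120048683-120068296. Neighbours in that cluster differed in class, with *Xcr1* highest in cDC1-like cells, *Ccr1* in neutrophil-like cells and *Ccr2*, on CDA-HFD, in cluster 5. On chromosome 1, *Cxcr2* lies at chr1:74153994-74161246 and *Cxcr4* at chr1:128588199-128592299. *Ccr9* overlaps the long non-coding RNA *Gm17021*, and *Cx3cr1* overlaps *Gm33858*. Whether the counting used strand is not given in the sources used here, so counts from such pairs cannot be told apart.

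Promoters, 250 bases before to 50 after the start of a gene, were matched by symbol for 7 of the 8 receptors in the RefSeq GRCm38.p6 table. *Ccr7* had no entry. The window of *Ccr2*, chr9:124101933-124102232 on the + strand, was taken from another start than that of the gene given above, and lies inside the gene. Each was searched on both strands for GCGTGGGCG, a sequence that Egr proteins bind, and for GAGGAA, the core bound by PU.1, a factor of myeloid cells. The first was in 201 of 32851 promoters, 0.612%, and in none of the 7. The second was in 9289, 28.3%, and in 2 of the 7, *Cxcr2* and *Ccr1*. A match describes letters in a window, and its use in these cells was not tested. The promoters of the neutrophil receptors *Cxcr2* (chr1:74153744-74154043, + strand) and *Ccr1* (chr9:123968643-123968942, − strand) are shown since both genes were highest in the same class, and that of *Cxcr4* (chr1:128592250-128592549, − strand) since it ran opposite to *Cxcr2* there. Each reads 5′ to 3′ along its gene, with capitals for GAGGAA or its reverse complement TTCCTC.
Cxcr2: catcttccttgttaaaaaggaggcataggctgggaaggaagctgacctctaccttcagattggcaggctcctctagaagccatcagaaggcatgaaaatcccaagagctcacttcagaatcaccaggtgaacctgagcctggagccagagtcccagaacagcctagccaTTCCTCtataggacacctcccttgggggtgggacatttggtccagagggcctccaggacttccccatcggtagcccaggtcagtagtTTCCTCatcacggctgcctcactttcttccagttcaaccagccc
Ccr1: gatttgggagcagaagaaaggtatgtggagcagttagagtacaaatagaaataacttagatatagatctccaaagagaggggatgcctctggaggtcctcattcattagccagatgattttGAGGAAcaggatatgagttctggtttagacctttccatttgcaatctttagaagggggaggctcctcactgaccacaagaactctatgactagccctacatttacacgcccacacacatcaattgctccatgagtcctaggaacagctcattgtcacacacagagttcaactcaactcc
Cxcr4: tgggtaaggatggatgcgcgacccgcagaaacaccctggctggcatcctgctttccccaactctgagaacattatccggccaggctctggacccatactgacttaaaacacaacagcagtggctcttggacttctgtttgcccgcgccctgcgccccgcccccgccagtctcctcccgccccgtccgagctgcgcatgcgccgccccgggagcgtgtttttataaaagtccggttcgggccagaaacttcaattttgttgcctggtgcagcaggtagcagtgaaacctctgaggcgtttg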

How the data were processed

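The deposited matrix holds whole-number counts per gene and cell barcode, which the authors made with the TAS-Seq pipeline from BD Rhapsody libraries mapped to the GRCm38 transcriptome (release 101), with cells demultiplexed by hashtag. Whether reads or molecules were counted is not given in the sources used here. For 34 genes the lowest count above 0 was at least 5, none of them a receptor. Markers such as *Clec4f*, *Cd5l*, *Fcna*, *Vsig4*, *S100a9*, *Retnlg* and *Gzma* are among them, so their summed levels lack low counts. The authors' notes name Seurat 4.1.1 and R 4.2.1. Of 16786 barcodes, 1392 named doublets by the authors were left out, and 15384 cells with at most 25% mitochondrial counts were used. No barcode stood under more than 1 hashtag, and 7 hashtag columns were not used.

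Cells were clustered with Seurat 5.3.0 in R 4.3.3 (57 principal components, resolution 1.0), and sums, intervals and figures were made in Python 3.11.15 with numpy 2.4.6, pandas 2.3.3, scipy 1.17.1 and matplotlib 3.10.9. TMM and RLE factors came from edgeR 4.0.16. Ratio calls and intervals were tested on simulated counts. Doublets of cells from 1 mouse were scored with Scrublet (scanpy 1.11.5), whose own threshold marked 58 cells (0.377%). With so low a share that threshold was not used, though whether it was wrong was not tested. The 678 cells with scores in the top 5% of each mouse were left out instead, as an alternative only.

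The receptors and gene lists were chosen with earlier results of these data known. Several choices were made after seeing the data. The clustering settings were picked because they gave 5054 variable genes, the number in the study's methods, of which 5035 were used after the receptors among them were left out. The naming rule was written with the clusters in view, and a clause that leaves a cluster unnamed where another list fits better was added after cluster 15 was seen. The 5% share and the comparisons without Kupffer cell-like cells, without interferon-responding-like cells, without cluster 17 among neutrophil-like cells, without the class where a receptor is highest and with classes of at least 10 cells were also added then. Genes named were the receptors, the listed receptors, ligands and signalling proteins, *Egr2*, and the 3 genes most alike to each receptor. The values of 1 listed receptor are not reported here, though it is among the list's counts.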

Additional observations from a re-analysis of the deposited data

Results flagged for a closer look

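In 10 pairs of ratios a receptor was higher in 1 contrast and lower in the same contrast under the other genotype or diet, 5 over all cells and 5 within a class, with 95% counting intervals that left out 1 on both sides. Pairs in which either interval held 1 were not counted, such as the diet ratios of *Ccr9* over all cells, 0.913 and 1.58. None of these differences was tested, and each ratio compares 2 mice. The intervals that picked the pairs leave out the spread between cells. How many of all genes ran in opposite directions in this way was not counted, so the 10 pairs only describe the receptors. *Cxcr2* over all cells had a diet ratio of 1.495 in *Egr2* fl/fl mice and 0.675 in *Lyz2* Cre/+.*Egr2* fl/fl mice, though both were below 1 in neutrophil-like cells and also without those cells, at 0.876 and 0.608. The 95% interval of the ratio of 0.876, 0.758 to 1.01, held 1.

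The other 9 pairs set the genotype ratio on ND against that on CDA-HFD. Over all cells *Ccr1* had 1.46 on ND and 0.829 on CDA-HFD, *Ccr2* had 0.599 and 1.11, *Cxcr2* had 2.09 and 0.942, and *Xcr1* had 0.591 and 2.00. Without neutrophil-like cells the *Ccr1* ratios were 0.887 and 0.836, both below 1. *Ccr2* took 5 of the 10 pairs. Its genotype ratios were 0.735 on ND and 1.19 on CDA-HFD in *Cd209a*+ dendritic cell-like cells, and 0.822 and 1.04 in Ly6C hi monocyte-like cells. In Ly6C lo monocyte-like cells *Ccr2* had 0.612 and 1.496, the second just under the call, and in neutrophil-like cells 0.335 and 1.70. On ND the neutrophil-like ratio rested on 55 counts with *Egr2* fl/fl and 33 with *Lyz2* Cre/+.*Egr2* fl/fl. Without cluster 17 the neutrophil-like ratios were 0.659 and 0.874, both below 1. *Cxcr2* in *Cd209a*+ dendritic cell-like cells, where it was at most 14.6 CPM, had 2.67 and 0.541.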

How the results depend on the processing

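No paired analysis was possible because each group held 1 mouse. Of 16 diet ratios over all cells, 11 were called, and 10 to 13 under the other scalings, cell filters and count minimum run, and of 16 genotype ratios 5 were called, and 4 to 6, except at a fold of 2, which left 1. A fold of 2 also lowered the called pairs of a receptor and a class from 75.0% to 48.6% by diet and from 32.7% to 13.5% by genotype, since fewer ratios pass a larger fold. *Cxcr4* was called higher on CDA-HFD within every class compared under each clustering and scaling and the mitochondrial and hashtag filters at a fold of 1.5, and in 9 of 12 at a fold of 2. The comparisons that could be made ranged from 6 with the hashtag filter to 15 with cells gated one by one. With the hashtag filter the lowest ratio was 3.38, and the comparisons it dropped were not checked under it. Leaving out the highest doublet scores was run for the levels by class only, not for ratios. The class where a receptor had its highest mean was the same for 7 or 8 receptors, where a cluster without a name was matched by over 50% of cells. *Ccr2* was the exception each time: highest in Ly6C hi monocyte-like cells at resolution 0.5 and in another unnamed cluster at scale factor 10000, with and without a limit of 2000 variable genes. With that limit alone it was highest in a class named interferon-responding-like, matched to cluster 5 by its cells. The class was the same for 4 with cells gated one by one on the marker lists (*Ccr2* then highest in Ly6C hi monocyte-like cells, *Ccr9* and *Cx3cr1* in plasmacytoid dendritic cell-like cells, *Xcr1* in cDC1-like cells) and for 5 with classes of at least 10 cells (*Ccr9* then in B cell-like, *Cxcr4* in eosinophil-like and *Xcr1* in cDC1-like cells). In neutrophil-like cells without cluster 17, *Ccr2* turned direction by diet with *Lyz2* Cre/+.*Egr2* fl/fl, from 5.21 to 0.956, and by genotype on CDA-HFD, from 1.70 to 0.874, and its call was lost in both. Of the 24 genes most alike, 14 were named again with log2(CPM + 10). Among ratios over all cells called as reported, *Ccr9* turned direction: its diet ratio in *Lyz2* Cre/+.*Egr2* fl/fl mice was 0.777 without Kupffer cell-like cells and 0.918 without the 12 plasmacytoid dendritic cell-like cells, and its genotype ratio on CDA-HFD 0.906 without the latter. TMM factors moved the median log2 diet ratio of all genes by 0.15 and 0.16, and the share of diet calls that were higher from 36.1% to 49.3% with *Egr2* fl/fl and from 36.8% to 51.3% with *Lyz2* Cre/+.*Egr2* fl/fl (48.9% and 50.6% with RLE). *Cxcr2* in the former and *Ccr1* in the latter were then called higher as well. Of 256 single ratios over all cells recomputed, 132 lay within the counting interval, 121 moved beyond it and 3 were called ones that turned direction. Of the others, 15 were not called as reported and passed to the other side of 1. These were of *Ccr9* with *Egr2* fl/fl by diet and on ND by genotype, of *Cx3cr1* by genotype on ND, at 0.872 to 0.996, and of *Ccr1* and *Cxcr2* where given above, *Cxcr2* by diet also at 0.876 without neutrophil-like cells. Depth limits *Ccr9*, with 412 counts, and the classes under 50 cells. The causes were not tested.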
